A study of Homo sapiens with 12 samples.

Results

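The genes described here are the 38 protein-coding genes of homologous recombination, of the Fanconi anaemia pathway and of the replication-stress checkpoint in SU-DHL-4, an established B-cell line of diffuse large B-cell lymphoma (DLBCL) of the germinal-centre type that was grown from a peritoneal effusion. They were listed by name, with no threshold on their values, but with earlier results of these data known. They were read from the 46863 rows of the deposited count table. All 38 passed the filter on low counts and were among the 16835 genes tested. RNA was taken from 4 groups of 3 libraries after 72 h. The first group received DMSO, the solvent control. The second received 1 µM of Entospletinib (Ento), an inhibitor of the kinase SYK. The third received 0.01 µM of AZD5153 (AZD), a bivalent inhibitor of BET proteins, which read acetylated histones. The fourth received both agents at these doses (Ento+AZD). Every group is the same unedited line, labelled wild type, so the results describe cultures of 1 line at 1 time and 1 dose of each agent.

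Homologous recombination copies an intact sister strand into a broken one, and therefore works mainly in S and G2 phase. Broken ends are first trimmed to single strands, BRCA1 with BARD1 and PALB2 brings in BRCA2, and BRCA2 prepares the strand exchange with the help of the complexes of RAD51C, RAD51D, XRCC2 and XRCC3, of RAD51AP1 and of the RAD54 motor proteins. The Fanconi pathway opens crosslinked DNA: a core complex and the E2 enzyme UBE2T attach ubiquitin to FANCI and FANCD2, and the mark directs the incision and the recombination that follow. ATM and ATR are the kinases that sense breaks and stalled forks, and CHEK2 and CHEK1 are the kinases they activate. Many of these genes are known targets of E2F, the family of factors that turns on S-phase genes.

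Levels are given as CPM, the count of a gene relative to the total of its library after scaling by the trimmed mean of M values (TMM), in the order of replicates 1, 2 and 3. The libraries held 18121993 to 24675830 counts, so that 1 count was worth 0.0393 to 0.0564 CPM, and the 38 genes took 0.229% ± 0.050 of all counts with DMSO, 0.212% ± 0.037 with Ento, 0.186% ± 0.024 with AZD and 0.171% ± 0.016 with Ento+AZD (SD, n = 3 each). The 7 markers of B cells fixed for the check of the line were present in every library at 63.5 CPM or more. Of the markers of other cell types, CD3D had no count in any library, CD14, LYZ, EPCAM and COL1A1 had at most 3, CD3E had 9 to 51, and PECAM1 reached 87.3 CPM. A gene is said to have fallen or risen where the adjusted p of edgeR's quasi-likelihood test was below 0.05, and is a differentially expressed gene (DEG) where its log2 fold change was also beyond 1 in size. The test had the replicate number as a block. The replicates were numbered in the labels and described as biological in the design text. The study's methods speak of biologically independent samples and do not describe separate cultures. The p-values therefore measure the spread left between these libraries after the replicate number is accounted for.

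With Ento+AZD against DMSO, 24 of the 38 genes fell and 3 rose, where 20.8% of all genes tested fell and 19.2% rose. Among the 24 were 12 DEGs, a class that held 4.89% of all genes tested. The 12 were RAD51AP1, CHEK1, EXO1, RAD54L, FANCG, FANCC, FANCI, BRIP1, FANCA, BARD1, XRCC2 and UBE2T, in order of the size of their change, from 3.40-fold lower for RAD51AP1 to 2.01-fold lower for UBE2T. The 3 genes that rose were ATM, ATR and XRCC3, between 1.30-fold and 1.43-fold, and none of the 38 was a DEG in that direction. The median log2 fold change of the 38 was −0.73, against 0.01 over all genes tested. The list was made with earlier results of these data known, so these shares are no independent test. In 19 genes every Ento+AZD library lay below every DMSO library, which held for 20.0% of all genes tested, and in 3 genes (XRCC3, ATR and ATRIP) every Ento+AZD library lay above, which held for 19.1% of all genes tested. Within the same replicate number, 25 of the 38 genes were lower with Ento+AZD in all 3 pairs, a count that was not made over all genes tested. Without the replicate block, 10 of the 38 were called lower and 2 higher, with 5 DEGs. That fit called 1311 (7.79%) of the 16835 genes tested lower and 1087 higher. RNA of a whole culture was measured, so fewer cells in the phase that expresses a gene and less RNA of it per cell cannot be told apart.

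**Figure D1:**
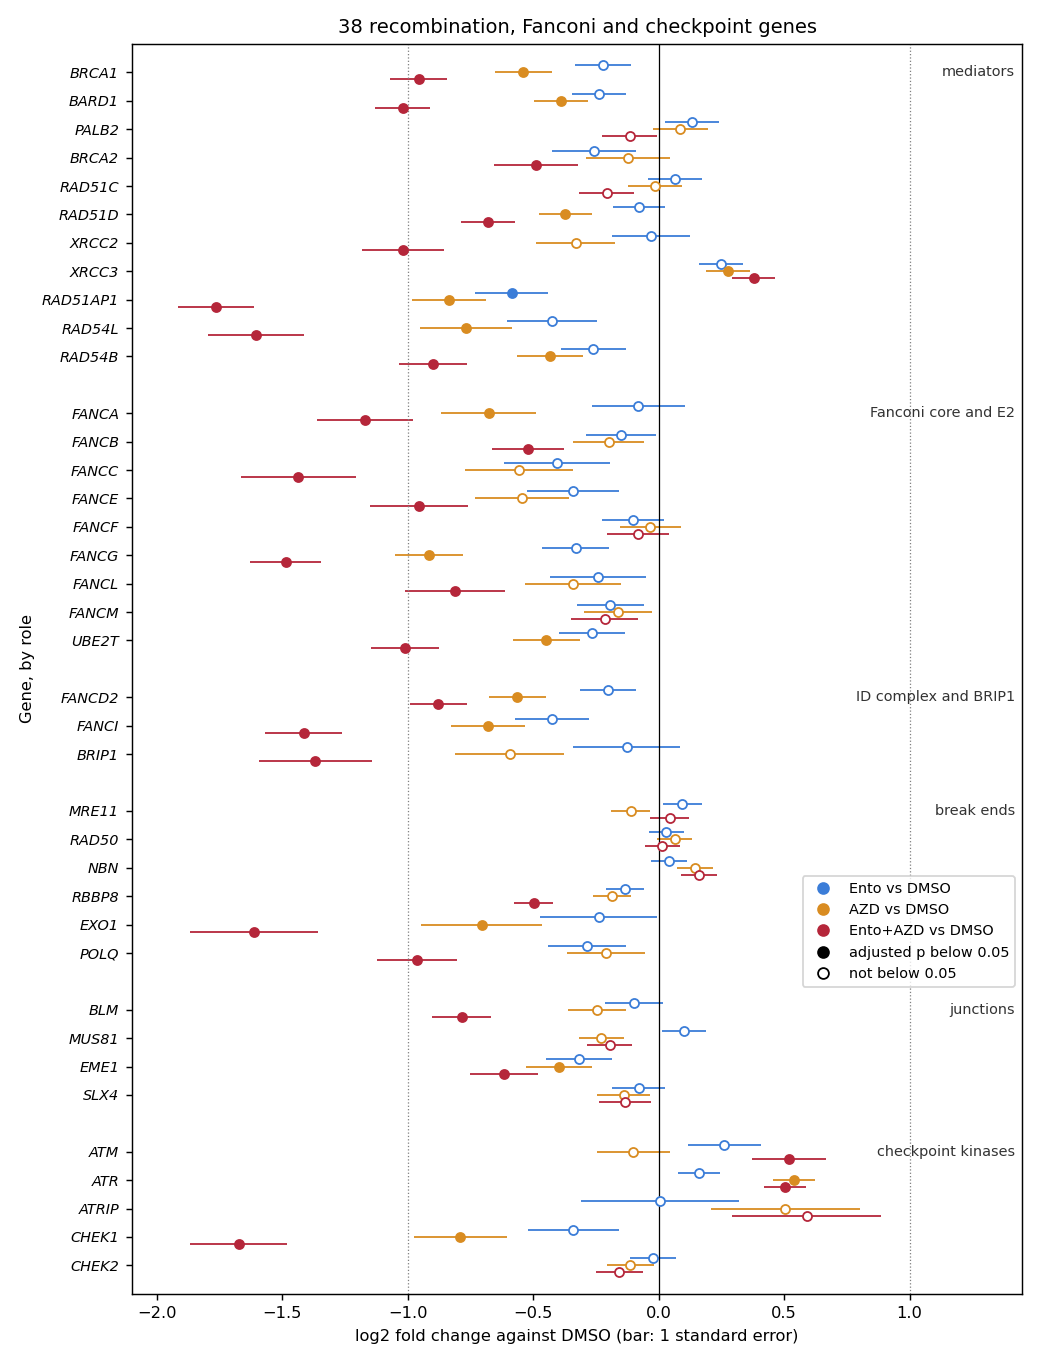
The log2 fold changes of the 38 genes against DMSO, by role, with bars of 1 standard error. Blue is Ento, orange AZD and red Ento+AZD, filled points have an adjusted p below 0.05, and dotted lines mark a log2 fold change of 1 in either direction. With Ento+AZD the 12 DEGs lie left of the lower dotted line, and ATM, ATR and XRCC3 are the filled points right of 0.

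The single agents moved fewer of these genes. With AZD 14 of the 38 fell and 2 rose, XRCC3 and ATR, where 12.7% and 9.57% of all genes tested did so, and with Ento 1 fell, RAD51AP1, and none rose, where 3.66% and 4.66% did so. At an unadjusted p below 0.05, 7 of the 38 (18.4%) differed with Ento, 6 of them lower, where 24.3% of all genes tested differed, and DESeq2 called none higher. No gene of the 38 was a DEG with a single agent. The median log2 fold change was −0.29 with AZD and −0.14 with Ento. Against Ento, the combination lowered 21 genes and raised 1, ATR, where 12.2% and 8.27% of all genes tested changed in those directions, and 8 of the 21 were DEGs, where 2.47% of all genes were. Against AZD, it lowered 16 and raised 1, ATM, where 6.04% and 5.85% changed, and none was a DEG. These comparisons share libraries. The count for AZD against DMSO fell to 4 without AZD replicate 3, to 7 without DMSO replicate 2 or AZD replicate 2, and to 0 without the block, where 6 of the 38 (15.8%) and 20.5% of all genes had an unadjusted p below 0.05. The count for Ento+AZD against AZD fell to 2 without AZD replicate 1, to 6 without either library of replicate 2 in those groups, to 8 without Ento+AZD replicate 1, and to 0 without the block, with 3 of the 38 (7.9%) and 11.5% of all genes at an unadjusted p below 0.05. RAD51AP1 lost its call with Ento in 4 of the fits that left out 1 library, and 8 genes were called lower with Ento without DMSO replicate 1.

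Whether both agents together did more or less than the sum of their single effects on the log2 scale was tested as an interaction. None of the 38 passed, nor did any of the 16835 genes (0% called). At an unadjusted p below 0.05 there were 4 of the 38 and 1652 of all genes, and DESeq2 called none of the 38 and 8 genes in all. The estimate was below 0 for 31 of the 38 and for 8757 of the 16835 genes tested, with a median of −0.20 against −0.01 over all genes. All these estimates came from the same 12 libraries. XRCC2 had the interaction estimate with the lowest adjusted p, −0.66 ± 0.23 (SE, adjusted p = 0.444), where a negative value means a larger fall than the sum. Without the filter on low counts 4 were called, namely XRCC2, BRIP1, EXO1 and CHEK1, and without DMSO replicate 2 there were 2, XRCC2 and CHEK1. Over all genes the fit without DMSO replicate 2 called 151 genes below and 62 above 0, and that without the filter 157 and 121.

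The medians of the 38 genes differed between the 3 replicate numbers. With Ento+AZD the median log2 ratio of the 38 genes to the DMSO library of the same number was −0.45 in replicate 1, −0.98 in replicate 2 and −0.68 in replicate 3. With AZD it was 0.00075 in replicate 1, −0.47 in replicate 2 and −0.52 in replicate 3. With Ento it was 0.12 in replicate 1, where 11 of the 38 genes lay below DMSO, −0.47 in replicate 2, where 30 did, and −0.087 in replicate 3, where 29 did. The DMSO libraries differed as well: DMSO replicate 3 was the highest of the 3 for 35 of the 38 genes. The Ento+AZD library was the lowest of its number for 28, 28 and 27 of the 38 genes in replicates 1, 2 and 3. Neither this order nor that of the DMSO libraries was counted over all genes tested.

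**Figure D2:**
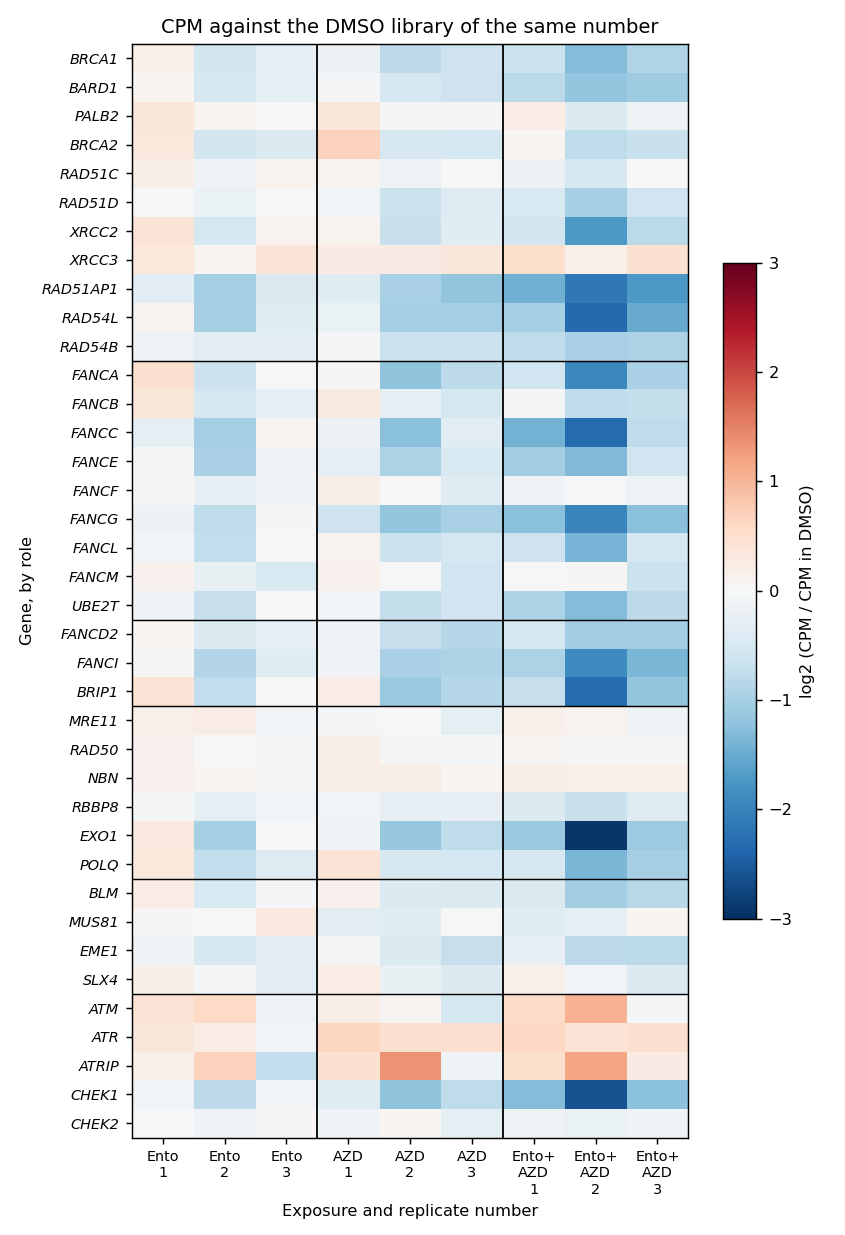
The log2 ratio of CPM in each treated library to CPM in the DMSO library of the same replicate number, for the 38 genes in rows grouped by role, with blue lower and red higher. The Ento+AZD column of replicate 2 is the deepest blue, with a median of −0.98, while the Ento column of replicate 1 has a median of 0.12.

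As most of these genes fell together, their promoters were searched for the words of cell cycle factors. RefSeq windows on GRCh38.p14, from 250 bases before to 50 bases after an annotated start, were at hand for 35 of the 38 genes, leaving out RAD54B, FANCI and NBN. The E2F word was taken as TTTCCCGC, TTTCGCGC, TTTGCCGC or TTTGGCGC on either strand. It stood in a window of 5 of the 35 genes (14.3%), in 3.31% of all 35116 windows, and in at least 1 window of 6.57% of the 10473 tested genes that have one. The 5 genes were EXO1, FANCD2, XRCC2, FANCC and FANCA, all among the 22 genes with a window that fell with Ento+AZD, and none of the other 13 had a match. The word was not counted apart in all tested genes that fell and in those that did not, and its bearing on the fall was not tested. The stretches of 30 bases around each match are shown so that the words and their surroundings can be compared, read 5′ to 3′ on the strand of the gene with the word in capitals. A word written GCGGGAAA, GCGCGAAA or GCGGCAAA is a match on the other strand.
EXO1 (chr1:241848197-241848226, plus strand): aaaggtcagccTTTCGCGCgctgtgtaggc
FANCD2 (chr3:10026424-10026453, plus strand): cgtcgggcctgGCGGGAAAgtcgaaaacta
XRCC2 (chr7:152676102-152676131, minus strand): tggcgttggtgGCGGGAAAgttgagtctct
FANCC, distal (chr9:95317863-95317892, minus strand): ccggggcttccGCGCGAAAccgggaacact
FANCC, proximal (chr9:95317737-95317766, minus strand): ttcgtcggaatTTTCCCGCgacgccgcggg
FANCA (chr16:89816801-89816830, minus strand): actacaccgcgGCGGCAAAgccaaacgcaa

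The match of EXO1 begins at base 5 after the start and that of FANCD2 at base 2 before it. XRCC2 has its match at base 22 after the start, FANCC at bases 172 and 46 before it, and FANCA at base 172 before it. Words of other factors, which are not part of the E2F words, were counted in the same way. CCAAT, the word of the factor NF-Y, stood on either strand in a window of 17 of the 35 genes (48.6%), against 43.1% of the tested genes with a window, and in 8 of the 22 genes that fell against 9 of the other 13. The word of the CHR element, TTTGAA or TTCGAA, stood in 5 of the 35 (14.3%), against 15.8% of the tested genes, and in 4 of the 22 genes that fell against 1 of the other 13. The 3 genes with the largest falls among those without an E2F word and with a window, RAD51AP1, CHEK1 and RAD54L, each carry CCAAT on the other strand (ATTGG, in capitals), and are shown for comparison with the genes above.
RAD51AP1 (chr12:4538808-4538837, plus strand): tggctggtgatgATTGGacgactggtaaca
CHEK1 (chr11:125626112-125626141, plus strand): ctagcgcaggggATTGGagagactcctgcg
RAD54L (chr1:46247611-46247640, plus strand): cccagactcctcATTGGgcgcagcactatt

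The first group by role holds the 11 genes that prepare and assist strand exchange. With Ento+AZD 8 of them fell, 1 rose and 2 did not pass the test, with a median log2 fold change of −0.90 and a range from −1.76 to 0.38. BRCA1, the ubiquitin ligase and scaffold that commits a break to recombination, stood at 93.8, 101 and 147 CPM with DMSO, 105, 68.99 and 125 with Ento, 83.3, 58.5 and 95.7 with AZD and 60.4, 40.98 and 78.8 with Ento+AZD. Each Ento+AZD library lay below each DMSO library, and the log2 fold change was −0.96 ± 0.11 (SE, adjusted p = 3.07e-05), a fall to 0.515 of the control. BARD1, its obligate partner, stood at 43.5, 36.8 and 61.8 CPM with DMSO, 45.03, 26.5 and 50.5 with Ento, 42.7, 25.8 and 40.01 with AZD and 24.8, 16.2 and 29.7 with Ento+AZD. It fell as well, −1.02 ± 0.11 (SE, adjusted p = 1.64e-05), and the log2 ratio of BRCA1 to BARD1 within a library moved by 0.07 ± 0.17 (SD of 3 pairs), with overlapping groups. With AZD alone BRCA1 fell by 0.54 and BARD1 by 0.39 on the log2 scale (adjusted p = 0.00495 and 0.0194). The call of BARD1 with AZD was lost in 6 of 19 alternatives: without the block (adjusted p = 0.471), with the libraries of both groups only (adjusted p = 0.0575), and without DMSO replicates 2 or 3 or AZD replicates 2 or 3 (log2 fold changes from −0.28 to −0.39). That of BRCA1 was lost in 1, the fit without the block.

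The next pair of partners had smaller estimates. PALB2, the bridge between BRCA1 and BRCA2, stood at 18.003, 24.2 and 25.97 CPM with DMSO, 22.9, 25.6 and 25.8 with Ento, 22.97, 23.6 and 25.3 with AZD and 21.1, 18.2 and 23.2 with Ento+AZD. Its libraries overlapped in all 4 groups, it was the gene nearest to no change in this role group, and its log2 fold change with Ento+AZD was −0.12 ± 0.11 (SE, adjusted p = 0.427). BRCA2, which prepares the trimmed strand for exchange, stood at 42.05, 47.9 and 92.03 CPM with DMSO, 52.3, 32.5 and 68.1 with Ento, 67.6, 34.5 and 63.4 with AZD and 43.9, 28.2 and 58.1 with Ento+AZD. Its groups overlapped, replicate 1 was higher with Ento+AZD than with DMSO, and the log2 fold change of −0.49 ± 0.17 (SE, adjusted p = 0.0323) lost its call in 5 of the fits that left out 1 library and without the block (adjusted p = 0.374), with values from −0.33 to −0.51 in those 5.

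The genes RAD51C, RAD51D, XRCC2 and XRCC3 went different ways. XRCC2, a partner of RAD51D, stood at 27.9, 33.9 and 45.4 CPM with DMSO, 36.2, 23.4 and 48.5 with Ento, 29.8, 21.4 and 35.03 with AZD and 18.9, 10.3 and 25.9 with Ento+AZD. It fell by 1.02 ± 0.16 (SE) on the log2 scale with Ento+AZD (adjusted p = 0.000259), with no overlap with DMSO, while with Ento alone its level was close to the control (−0.03 ± 0.16, adjusted p = 0.929). XRCC3, the partner of RAD51C, stood at 46.2, 55.4 and 51.8 CPM with DMSO, 57.4, 57.6 and 67.3 with Ento, 55.2, 65.4 and 65.3 with AZD and 67.01, 61.3 and 70.7 with Ento+AZD. Every Ento+AZD library lay above every DMSO library, and so did every Ento library. It rose with Ento+AZD, 0.38 ± 0.09 (SE, adjusted p = 0.00359), and with AZD, 0.28 ± 0.09 (SE, adjusted p = 0.0358), a call that 9 of 19 alternatives did not keep, while Ento gave 0.25 ± 0.09 (SE, adjusted p = 0.0942). The opposite-strand gene KLC1 covers 34.2% of the exon bases of the XRCC3 transcript, so that without a stated strand setting some of these reads may belong to KLC1. RAD51D fell, −0.68 ± 0.11 (SE, adjusted p = 0.000251), and RAD51C did not pass the test, −0.21 ± 0.11 (SE, adjusted p = 0.145). Within a library the log2 ratio of XRCC3 to RAD51C was 0.59 ± 0.13 (SD of 3 pairs) higher with Ento+AZD than with DMSO, without overlap.

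The accessory factors held the lowest log2 fold change of the 38. RAD51AP1, which helps to pair strands, stood at 94.1, 63.3 and 139 CPM with DMSO, 75.2, 31.4 and 103 with Ento, 73.2, 32.1 and 61.7 with AZD and 34.8, 14.3 and 42.3 with Ento+AZD. It was lowest with Ento+AZD in every replicate number, and the log2 fold change was −1.76 ± 0.15 (SE, adjusted p = 4.92e-06), to 0.294 of the control. It was also the one gene of the 38 that was called with Ento alone, −0.59 ± 0.14 (SE, adjusted p = 0.0233), and it fell with AZD, −0.84 ± 0.15 (SE, adjusted p = 0.00186). RAD54L, a motor protein of strand exchange, stood at 29.8, 33.6 and 58.3 CPM with DMSO, 32.04, 16.8 and 45.5 with Ento, 26.04, 16.5 and 28.7 with AZD and 14.9, 6.62 and 20.4 with Ento+AZD. Its Ento+AZD libraries lay below every DMSO library, with a log2 fold change of −1.60 ± 0.19 (SE, adjusted p = 2.98e-05), and it too fell with AZD, −0.77 ± 0.18 (SE, adjusted p = 0.00942). Of its transcript 26.2% of exon bases are shared with LRRC41 on the other strand. RAD54B, its paralogue, had a smaller estimate, −0.90 ± 0.14 (SE, adjusted p = 0.000172), and shares 65.5% of its exon bases with FSBP on the same strand, so that its reads are uncertain.

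**Figure D3:**
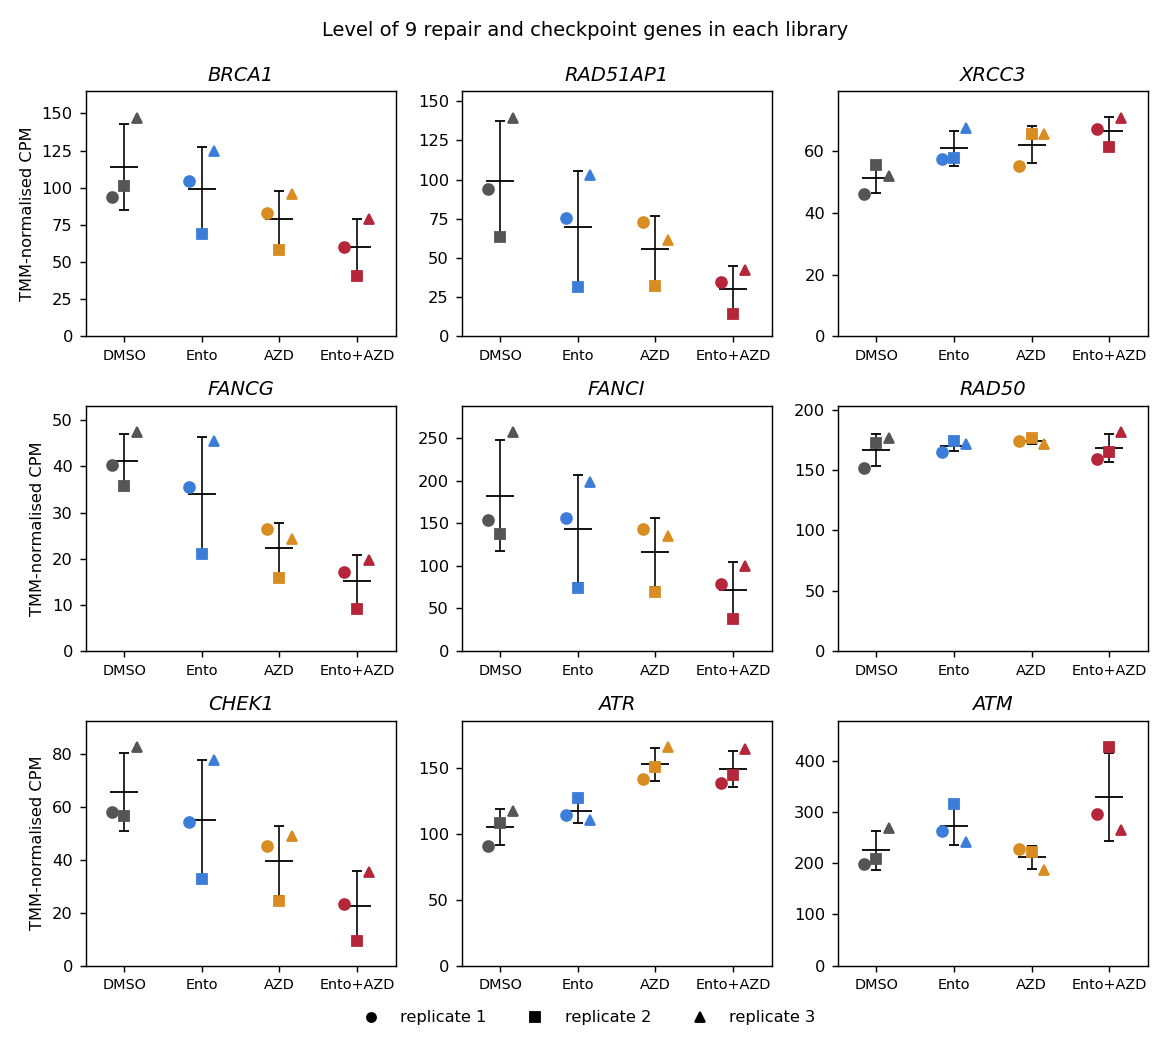
TMM-normalised CPM of 9 genes in each of the 12 libraries, by group and with the marker showing the replicate number, with the mean and SD of each group as bars. The Ento+AZD libraries of BRCA1, RAD51AP1, FANCG, FANCI and CHEK1 lie below all DMSO libraries, those of XRCC3 and ATR lie above, and those of RAD50 and ATM overlap with DMSO.

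The Fanconi core complex and its E2 enzyme gave 9 genes, of which 7 fell with Ento+AZD, none rose and 2, FANCF and FANCM, did not pass the test (log2 fold change −0.08 and −0.21). The median was −0.96. FANCG, a scaffold of the core that binds FANCA, stood at 40.4, 35.7 and 47.4 CPM with DMSO, 35.6, 21.04 and 45.5 with Ento, 26.4, 15.9 and 24.3 with AZD and 17.02, 9.05 and 19.7 with Ento+AZD. All 3 AZD and all 3 Ento+AZD libraries were below every DMSO library, with log2 fold changes of −0.92 ± 0.14 (SE, adjusted p = 0.000751) and −1.49 ± 0.14 (SE, adjusted p = 7.6e-06). The first was the lowest value of the 38 genes with AZD alone. FANCA stood at 28.9, 37.3 and 57.8 CPM with DMSO, 40.2, 23.95 and 57.9 with Ento, 29.5, 16.03 and 33.7 with AZD and 19.2, 9.82 and 29.3 with Ento+AZD. Ento+AZD replicate 3 was just above DMSO replicate 1, so the groups overlapped, although each pair was lower and the log2 fold change was −1.17 ± 0.19 (SE, adjusted p = 0.000336). Of its transcript 27.4% of exon bases are shared with ZNF276 on the other strand. FANCC, a core subunit of low level, stood at 9.38, 8.98 and 10.2 CPM with DMSO, 7.69, 4.40 and 10.7 with Ento, 8.26, 3.79 and 8.23 with AZD and 3.52, 1.81 and 6.04 with Ento+AZD. No Ento+AZD library reached the lowest DMSO library, and the log2 fold change was −1.44 ± 0.23 (SE, adjusted p = 0.000273).

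UBE2T, the E2 enzyme that carries ubiquitin to FANCD2 and FANCI, stood at 40.02, 33.5 and 49.7 CPM with DMSO, 36.5, 20.9 and 49.3 with Ento, 37.7, 20.5 and 33.5 with AZD and 20.9, 13.5 and 28.7 with Ento+AZD. It fell without overlap, by a log2 fold change of −1.01 ± 0.14 (SE, adjusted p = 7.1e-05), and AZD alone gave −0.45 ± 0.13 (SE, adjusted p = 0.027), a call lost without the block (adjusted p = 0.487) and without DMSO replicate 2, AZD replicate 2 or AZD replicate 3. FANCF, an adaptor of the core encoded by a single exon, stood at 13.8, 13.8 and 13.99 CPM with DMSO, 14.2, 11.6 and 12.97 with Ento, 15.9, 14.002 and 10.9 with AZD and 12.8, 13.9 and 12.6 with Ento+AZD. It was the gene of this group nearest to no change, −0.08 ± 0.12 (SE, adjusted p = 0.624), with a sign that turned without Ento+AZD replicate 1. FANCE fell by 0.96, FANCL by 0.81 and FANCB by 0.52 on the log2 scale (adjusted p = 0.0016, 0.00528 and 0.0101), and the call of FANCB was lost without DMSO replicate 2 or 3 (log2 fold change −0.41 and −0.40) and, like those of FANCE and FANCL, without the block. FANCL, the ubiquitin ligase subunit, shares 27.3% of its exon bases with VRK2 on the other strand.

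The substrates of the core and the helicase BRIP1 all fell with Ento+AZD, with a median of −1.37. FANCD2, the ubiquitinated protein that marks a crosslink, stood at 77.5, 83.4 and 136 CPM with DMSO, 81.03, 63.2 and 115 with Ento, 71.05, 51.7 and 75.2 with AZD and 53.9, 40.8 and 65.8 with Ento+AZD. The log2 fold change was −0.88 ± 0.11 (SE, adjusted p = 5.37e-05), without overlap with DMSO. FANCI, its partner in the clamp, stood at 153, 137 and 257 CPM with DMSO, 157, 74.5 and 198 with Ento, 143, 69.7 and 135 with AZD and 78.9, 37.3 and 99.9 with Ento+AZD. It fell too, −1.41 ± 0.15 (SE, adjusted p = 1.64e-05), and without the block its adjusted p was 0.0533. The log2 ratio of FANCI to FANCD2 was 0.87 ± 0.14 (SD, n = 3) with DMSO and 0.34 ± 0.41 with Ento+AZD, and these did not overlap. BRIP1, a helicase that binds BRCA1, stood at 24.7, 30.7 and 49.3 CPM with DMSO, 32.97, 18.3 and 50.1 with Ento, 28.8, 14.3 and 27.4 with AZD and 15.3, 6.29 and 21.9 with Ento+AZD. Its Ento libraries spanned the DMSO range, and it fell with Ento+AZD, −1.37 ± 0.23 (SE, adjusted p = 0.000339). Against AZD it was called lower as well, −0.77 ± 0.23 (SE, adjusted p = 0.0413), but 9 of 19 alternatives did not keep that call, among them DESeq2 (adjusted p = 0.0757), the fit without the block (adjusted p = 0.551) and those without AZD replicates 1 or 2, Ento replicates 1 or 3, or any 1 Ento+AZD library (log2 fold changes from −0.53 to −0.91).

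The 6 genes that sense and process broken ends were divided. The 3 subunits of the MRN complex, which binds broken ends, did not pass the test with Ento+AZD: MRE11 had a log2 fold change of 0.04, RAD50 of 0.01 and NBN of 0.16 (adjusted p = 0.677, 0.892 and 0.087). RAD50, the gene nearest to no change of all 38, stood at 152, 173 and 177 CPM with DMSO, 165, 174 and 172 with Ento, 174, 177 and 171 with AZD and 159, 165 and 181 with Ento+AZD. Its 12 libraries lay within 152 and 181 CPM, and its sign turned with library size as the scaling or without DMSO replicate 1 or Ento+AZD replicate 3. A readthrough transcript on the same strand covers 91.0% of its exon bases. The nuclease EXO1, which extends the trimming, stood at 17.9, 21.4 and 30.5 CPM with DMSO, 21.9, 10.8 and 30.4 with Ento, 16.3, 9.78 and 17.9 with AZD and 8.27, 2.81 and 14.2 with Ento+AZD. It was lowest with Ento+AZD in each replicate number, 2.81 CPM in replicate 2, and the log2 fold change was −1.61 ± 0.25 (SE, adjusted p = 0.000238). POLQ, the polymerase of a backup pathway that joins ends by short homology, fell by 0.96 ± 0.16 (SE, adjusted p = 0.000343). RBBP8, the cofactor of MRE11 that starts trimming, fell by 0.50 ± 0.08 (SE, adjusted p = 0.000201). Without the block the calls of EXO1, POLQ and RBBP8 were lost (adjusted p = 0.062, 0.152 and 0.0686). The POLQ libraries of Ento+AZD and DMSO overlapped.

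Of the 4 genes that resolve joined molecules, BLM and EME1 fell with Ento+AZD (−0.79 ± 0.12 and −0.62 ± 0.13, adjusted p = 0.000165 and 0.00248) and MUS81 and SLX4 did not pass. BLM is the helicase that dissolves crossed strands, and EME1 is the partner of the nuclease MUS81. EME1 shares 23.2% of its exon bases with LRRC59 on the other strand. The Ento+AZD libraries of EME1 overlapped with those of DMSO, and the call of EME1 was lost without the block (adjusted p = 0.222). SLX4, the scaffold of nucleases, stood at 60.1, 67.1 and 96.2 CPM with DMSO, 68.3, 65.2 and 75.5 with Ento, 70.7, 57.8 and 72.2 with AZD and 66.5, 62.99 and 71.6 with Ento+AZD. The groups overlapped, the log2 fold change was −0.13 ± 0.11 (SE, adjusted p = 0.332), and its sign turned without DMSO replicate 3, while without DMSO replicate 1 it was −0.28 and called (adjusted p = 0.029). The log2 ratio of EME1 to MUS81 overlapped between all groups.

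Among the checkpoint kinases CHEK1 fell, while ATM and ATR rose. CHEK1, the kinase that carries the ATR signal to the cell cycle, stood at 57.9, 56.4 and 82.7 CPM with DMSO, 54.5, 32.7 and 77.9 with Ento, 45.3, 24.3 and 49.01 with AZD and 23.5, 9.15 and 35.5 with Ento+AZD. Each Ento+AZD library was below each DMSO library, and the log2 fold change was −1.67 ± 0.19 (SE, adjusted p = 2.45e-05), to 0.313 of the control, with −0.79 ± 0.18 (SE, adjusted p = 0.00881) with AZD and −0.34 ± 0.18 (SE, adjusted p = 0.269) with Ento. A noncoding gene on the other strand shares 18.2% of its exon bases. ATR, the kinase of stalled forks, stood at 90.6, 109 and 117 CPM with DMSO, 114, 127 and 110.4 with Ento, 141, 151 and 166 with AZD and 139, 144 and 164 with Ento+AZD. All AZD and all Ento+AZD libraries were above all DMSO libraries, with log2 fold changes of 0.54 ± 0.08 (SE, adjusted p = 0.00102) and 0.50 ± 0.08 (SE, adjusted p = 0.000377), and against AZD the combination added −0.03 ± 0.08 (SE, adjusted p = 0.83). Its call with Ento+AZD held under all 19 alternatives run, with values from 0.44 to 0.55.

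ATM, the kinase of double-strand breaks, stood at 199, 208 and 269 CPM with DMSO, 263, 315 and 242 with Ento, 227, 221 and 186 with AZD and 297, 427 and 264 with Ento+AZD. Ento+AZD replicate 2 was the highest library, while in replicate 3 the level with Ento+AZD was just under that with DMSO. ATM rose, 0.52 ± 0.15 (SE, adjusted p = 0.0116), and also against AZD, 0.62 ± 0.15 (SE, adjusted p = 0.016). The first call was lost without the block (adjusted p = 0.0597) and without DMSO replicate 1, DMSO replicate 2 or Ento+AZD replicate 2, where the log2 fold change was 0.44, 0.35 and 0.34. The call against AZD was lost without the block (adjusted p = 0.244) and without AZD replicate 2, AZD replicate 3 or Ento+AZD replicate 2, where it was 0.56, 0.56 and 0.44. CHEK2, the kinase downstream of ATM, stood at 35.3, 33.4 and 37.6 CPM with DMSO, 35.8, 30.6 and 38.3 with Ento, 32.1, 34.8 and 31.01 with AZD and 31.6, 29.1 and 34.7 with Ento+AZD. It was the gene of this group nearest to no change, −0.16 ± 0.09 (SE, adjusted p = 0.198). ATRIP, the partner that ATR needs, was near 1 CPM in every library (0.504 to 1.28, from 11 to 24 counts) and did not pass the test, 0.59 ± 0.30 (SE, adjusted p = 0.128), and it shares 31.6% of its exon bases with TREX1.

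Ratios of 2 genes within a library need no scaling between libraries. They show the change of 1 gene relative to the other, and not which of them moved. The log2 ratio of CHEK1 to ATR was −0.70 ± 0.22 (SD, n = 3) with DMSO, −1.18 ± 0.73 with Ento, −2.01 ± 0.54 with AZD and −2.92 ± 0.94 with Ento+AZD. Both the AZD and the Ento+AZD libraries lay below all DMSO libraries, by 1.32 and 2.22 on average. The log2 ratio of CHEK2 to ATM was −2.66 ± 0.17 with DMSO and −3.34 ± 0.48 with Ento+AZD, again without overlap. The gap was narrow: the highest Ento+AZD ratio was −2.93 and the lowest DMSO ratio −2.84, both in replicate 3. The ratio of RAD50 to MRE11 overlapped between Ento+AZD and DMSO, and was higher with AZD than with DMSO by 0.17 ± 0.14 without overlap. Here the lowest AZD ratio was 1.056 and the highest DMSO ratio 1.042, both in replicate 2. Overlap of ratios was not counted over gene pairs at large.

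**Figure D4:**
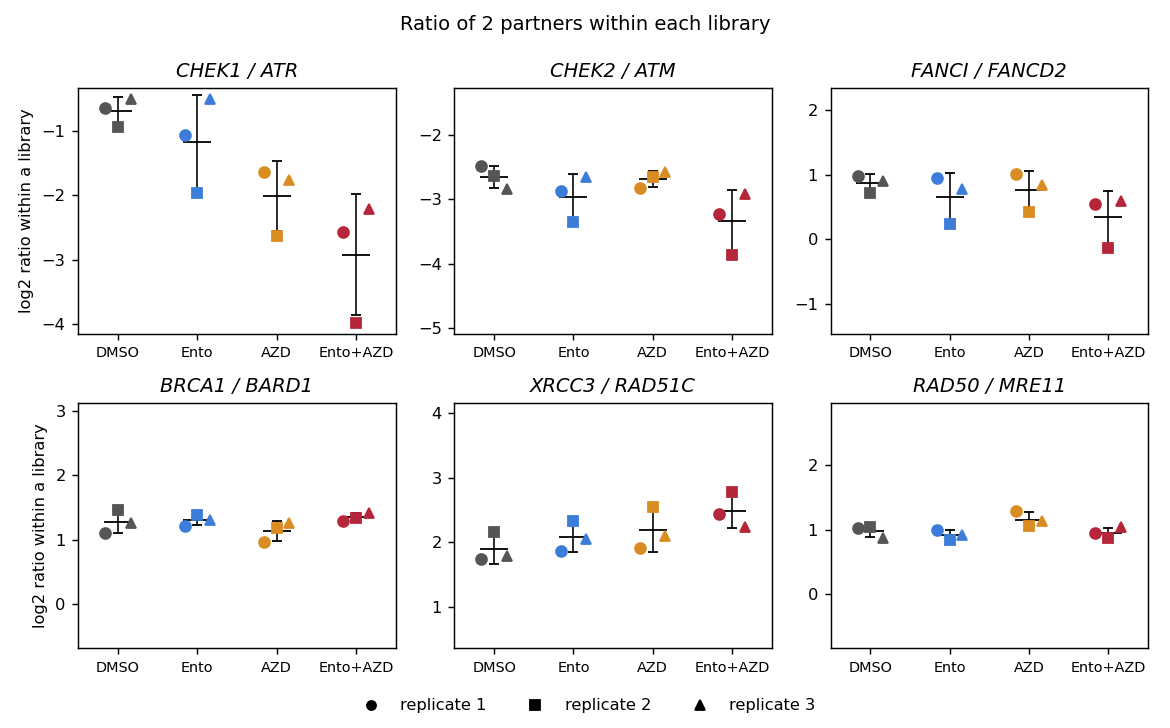
The log2 ratio of the CPM of 2 partner genes within each library, by group, with the mean and SD as bars and the marker showing the replicate number. Every panel spans the same number of log2 units. CHEK1 to ATR descends from −0.70 with DMSO to −2.92 with Ento+AZD, and BRCA1 to BARD1 stays between 0.96 and 1.46 in all 12 libraries.

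Levels of different genes were compared per kb of the GENCODE v44 canonical transcript. With DMSO, RBBP8, RAD51AP1 and UBE2T stood highest, at 47.2 ± 5.5, 46.8 ± 18.1 and 46.8 ± 9.2 CPM per kb (SD, n = 3), followed by FANCI at 38.5 ± 13.7. RAD50 was the fifth at 20.2 ± 1.6, BRCA1 stood at 16.1 ± 4.1 and BRCA2 at 5.07 ± 2.29. FANCC was at 2.07, and ATRIP was the lowest at 0.152. In this order 33 of the 37 neighbouring pairs overlapped between their DMSO libraries. With Ento+AZD, RAD51AP1 stood at 14.4 ± 6.8 CPM per kb and was the tenth, while ATM, at 25.5 ± 6.7, was the third after being the tenth with DMSO. The order depended on the length used. Per kb of all annotated exons of a gene, the ranks with DMSO were 19 for ATM, 17 for XRCC3, 7 for FANCI and 6 for MRE11. RAD51AP1, RBBP8 and UBE2T then ranked 1, 2 and 3. The lengths of the transcripts that SU-DHL-4 uses were not measured, and 9 of the 38 genes share over 10% of their exon bases with another gene.

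The rest of DNA repair was read from lists of named genes, to be set beside the 20.8% of all genes tested that fell and the 19.2% that rose with Ento+AZD. Of 38 tested genes of 39 further recombination and Fanconi factors, 17 fell and 7 rose with Ento+AZD (median log2 fold change −0.21). Among those that fell was DMC1, the recombinase of meiosis (−2.74). Of 30 genes of checkpoint and break signalling, 18 fell and 1 rose (median −0.37), led by CDC25A and CDC25C, phosphatases that open the cell cycle (−1.69 and −1.57). Of 7 mismatch repair genes 4 fell and none rose (−0.24), with MSH6 at −0.81. The remaining lists had medians between −0.05 and 0.08, beside 0.01 over all genes tested. Of 12 genes of non-homologous end joining 2 fell and 2 rose (−0.05), with XRCC4 at −0.53. Of 18 genes of base excision repair 6 fell and 3 rose (0.08), led by NEIL3 and UNG (−1.18 and −1.13). Of 18 genes of nucleotide excision repair 5 fell and 6 rose (0.03), led by DDB2 at −1.19 and XPC at 0.83.

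**Figure D5:**
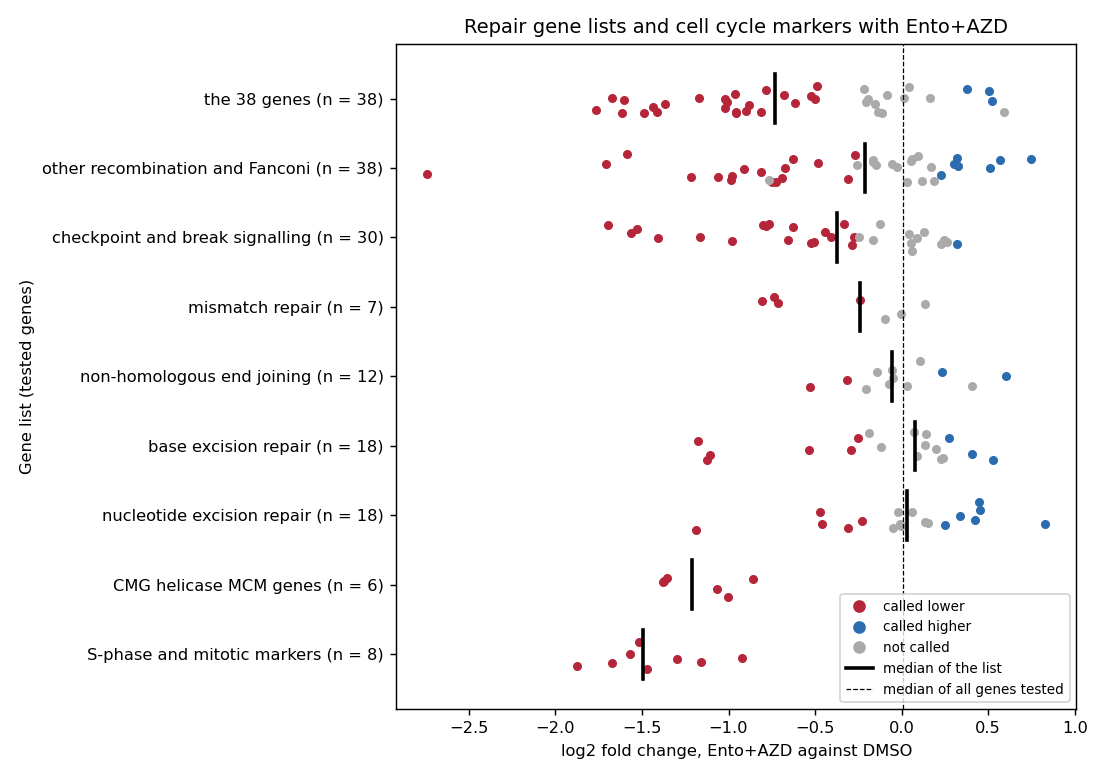
The log2 fold change with Ento+AZD against DMSO of each tested gene, by list, red where it fell, blue where it rose and grey where it did not pass the test. Thick bars are the list medians and the dashed line is the median of all genes tested. The median of the 38 genes is −0.73, that of the MCM genes −1.21 and that of nucleotide excision repair 0.03.

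Markers of replicating and dividing cells moved with these genes. The 6 MCM subunits of the replicative helicase all fell with Ento+AZD (median −1.21), and their summed level was 1249 to 2082 CPM with DMSO, 994 to 2166 with Ento, 804 to 1392 with AZD and 419 to 1047 with Ento+AZD. Of 8 markers of S phase and mitosis (PCNA, MKI67, TOP2A, CCNA2, CCNB1, CDK1, AURKA and BUB1) all 8 fell (median −1.49), and their sum was 2074 to 3239 CPM with DMSO and 430.2 to 1526 with Ento+AZD. With AZD 4 of the 6 and 8 of the 8 fell, where 12.7% of all genes tested did, and with Ento none of either list passed the test. With Ento all 8 markers had estimates below 0 (median −0.40), 4 of them at an unadjusted p below 0.05. At that level 1937 of the 16835 genes tested were lower. Of the 6 MCM genes 5 had estimates below 0 with Ento (median −0.16), and 0 reached that level. Both lists were added after the values were seen. None of these markers was at or near 0 in a library, and the part of the share of cycling cells in the results above was not tested.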

How the data were processed

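Poly-A RNA was read from one end. Per the study's methods, the authors removed adapters (CutAdapt, run by Trim Galore), placed the reads on GRCh38.p13 and made counts per gene with Rsubread. The submitters' processing notes also name hg19. The strand setting and the handling of reads that match several places are not given in the sources used here. The deposited counts are whole numbers for 46863 gene symbols without normalization. A second deposited table holds log2 CPM for 16226 genes, recomputed from the counts by edgeR (prior count 2) with differences of at most 5e-09, and used for nothing else.

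Genes were kept by filterByExpr (minimum count 10, minimum total 15), scaled by TMM and tested with edgeR 4.0.16 in R 4.3.3 (quasi-likelihood F-test on group plus replicate number, all 12 libraries, Benjamini-Hochberg over 16835 genes). The study's model had a batch term that its methods do not define, and the replicate number of the labels was taken for it. Its pairing was checked on deviations from the group means: libraries of the same number correlated at 0.21 to 0.70 in all 18 pairs, those of different numbers at −0.63 to 0.33 in 36. Standard errors are the size of the log2 fold change divided by the root of F. No 2 libraries of the same group agreed within counting noise (chi-square per degree of freedom 8.64 to 52.0). The steps were tested on simulated data. Exon overlaps and lengths came from GENCODE v44 and promoter windows from RefSeq GRCh38.p14.

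Values in every library are printed for 10 genes set by name, the DEGs, the genes called higher and the gene nearest to no change in each role group. The members and lists were chosen with earlier results of these data known. The alternatives were DESeq2 1.42.0, 3 other scalings, no low-count filter, no replicate block, fits of 2 groups, and leaving out each library. The 3 libraries a group limit the precision, and so does counting for genes of low level: ATRIP had 11 to 24 counts a library, a Poisson error of 30.2% at the lowest, and FANCC, FANCE and FANCL went down to 38, 39 and 41. Some genes of the marker and repair lists are counted in their lists and not reported here by name.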

Additional observations from a re-analysis of the deposited data

How the results depend on the processing

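The call of 24 genes as lower with Ento+AZD against DMSO ranged from 22 to 25 when 1 library was left out, and its DEGs from 8 (without DMSO replicate 2 or Ento+AZD replicate 2) to 17 (without DMSO replicate 1), against 12. The same ranges were 0 to 8 lower and 0 to 1 higher for Ento against DMSO, 4 to 21 and 1 to 2 for AZD against DMSO, 18 to 22 and 0 to 1 for Ento+AZD against Ento, 2 to 20 and 0 to 1 for Ento+AZD against AZD, 2 to 4 higher for Ento+AZD against DMSO, and 0 to 2 for the interaction.

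Without the replicate block, the counts of lower genes were 0 for Ento, 0 for AZD, 10 for Ento+AZD (5 DEGs), 1 against Ento and 0 against AZD, and those of higher genes were 1 for AZD, 0 against Ento and 0 against AZD. At an unadjusted p below 0.05, the fit without the block had 1, 6, 22, 19 and 3 of the 38 genes in these 5 comparisons, beside 11.6%, 20.5%, 34.1%, 18.8% and 11.5% of all genes. Among the 23 genes with values in every library, BRCA2, FANCI, UBE2T, ATM, XRCC2, FANCA, FANCC, BRIP1 and EXO1 lost the call with Ento+AZD there, and no called gene changed its sign. Without the filter on low counts, 6 genes were lower and 1 higher with Ento, 2 were higher against Ento, and 4 passed the interaction. DESeq2 gave 2 lower with Ento. With library size alone, and with the libraries of the 2 groups only, 1 gene was higher with AZD, and the latter gave 2 higher against Ento. The other scalings kept the counts of Ento+AZD against DMSO at 24 or 25 lower and 3 or 4 higher. Over all genes, the fit without the block called 10 lower and 26 higher with Ento, 221 and 105 with AZD, 1311 and 1087 with Ento+AZD, 136 and 70 against Ento, and 3 and 14 against AZD, and that without the filter gave 157 and 121 for the interaction. Library size alone gave 2694 lower and 1135 higher with AZD against 2134 and 1611, and 773 and 641 with Ento against 617 and 784. For Ento+AZD against AZD, upper quartile factors gave 801 lower and 1208 higher against 1016 and 985.

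Log2 fold changes of 4 of the 38 genes turned their sign with Ento+AZD against DMSO. MRE11 was at −0.0080 with library size alone and −0.0087 without DMSO replicate 2. RAD50 was at −0.039 with library size alone and ranged from −0.034 (without DMSO replicate 1) to 0.045 when 1 library was left out, with −0.030 without Ento+AZD replicate 3. FANCF ranged from −0.15 to 0.0011 (without Ento+AZD replicate 1), and SLX4 from −0.28 (without DMSO replicate 1) to 0.017 (without DMSO replicate 3). None was called where its sign turned. The causes were not tested.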
